A study of Mus musculus with 24 samples.

Results

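The retina of the mouse embryo was compared between embryonic day 16 (E16) and embryonic day 14 (E14). The comparison used all 4 libraries of those 2 ages, replicates 1 and 2 of each, out of 24 libraries that cover 12 ages, E11 to postnatal day 28 (P28), at 2 libraries each. All are labelled C57/Bl6N retina, without treatment or mutation. Per the labels, retinas were frozen, RNA was isolated with Trizol, and directional mRNA libraries were made from 1 µg of total RNA at E16 and at E14. The labels do not say whether the libraries of an age came from separate animals or pools. The p-values thus measure only the spread between libraries of the same age, estimated over all 24 libraries.

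Retinal neurons are born from a common pool of dividing progenitor cells in a conserved, overlapping order. Ganglion cells, horizontal cells, cone photoreceptors and amacrine cells are generated before birth in the mouse, while most rods, bipolar cells and Müller glia appear around and after birth. Progenitors change competence as they age, and each new neuron leaves the cell cycle, switches on fate-determining transcription factors and then builds axons, receptors and synapses. E14 falls in the main period of ganglion cell birth in the mouse, which overlaps with the birth of cone, horizontal and amacrine cells.

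Levels are given as CPM, a gene's count relative to its library's total, scaled between libraries by the trimmed mean of M values (TMM), with replicate 1 before replicate 2. CPM is not corrected for gene length, so levels of different genes are not set against each other. A gene was called higher or lower when its adjusted p was under 0.05 and its change was at least 2-fold in edgeR's quasi-likelihood test (Benjamini-Hochberg over all genes tested). "Rose" and "fell" are used below only of called genes. In whole tissue, more cells of a type and more RNA per cell cannot be told apart.

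The libraries held 32202777 and 32405347 estimated counts at E16, and 32287797 and 28683910 at E14, and replicates differed by a log2 SD of 0.156 at E16 and 0.194 at E14 over 8963 well-measured genes. The E14 libraries differed from each other in lens RNA and in sex-linked genes. Xist, expressed from the inactive X chromosome of females, had 2017 and 2237 CPM at E16, against 378 and 3099 CPM at E14, and the Y-linked gene Ddx3y had 48.1 and 48.6 CPM at E16, against 56.0 and 24.8 CPM at E14. Neither gene was called, and the part of sex in other results was not tested. The summed level of 22 tested lens genes was 9.57 and 9.21 CPM at E16, against 88.3 and 3324 CPM at E14. Cryaa, a lens crystallin, had no counts in either E16 library, against 32.6 and 1075 CPM at E14. Of the 364 genes called lower, 15 belong to the lens list, and 23 lay over 4 times higher in E14 replicate 2 than in E14 replicate 1. The same was true of 43 of the 1195 genes called higher. The share over all genes tested was not counted. Without E14 replicate 2, 229 genes were called lower and 948 higher, and no lens gene was called. The lens list also lost its 15 calls when either E16 library was left out, with both E14 libraries kept. Pigment cell genes were low in all 4 libraries, with list sums of 38.2 and 53.7 CPM at E16, against 38.0 and 53.9 CPM at E14. A group of 7 features, such as Lars2, is called ribosomal RNA-like here, though their reads were not examined. The group was picked after its values had been seen. It summed to 10832 and 12444 CPM at E16, against 2262 and 1516 CPM at E14, and its part in other results was not tested. Pax6, a factor of retinal progenitors and some neurons, measured 695 and 701 CPM at E16, against 815 and 843 CPM at E14. As 1 gene, it does not show how pure the tissue was.

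**Figure D1:**
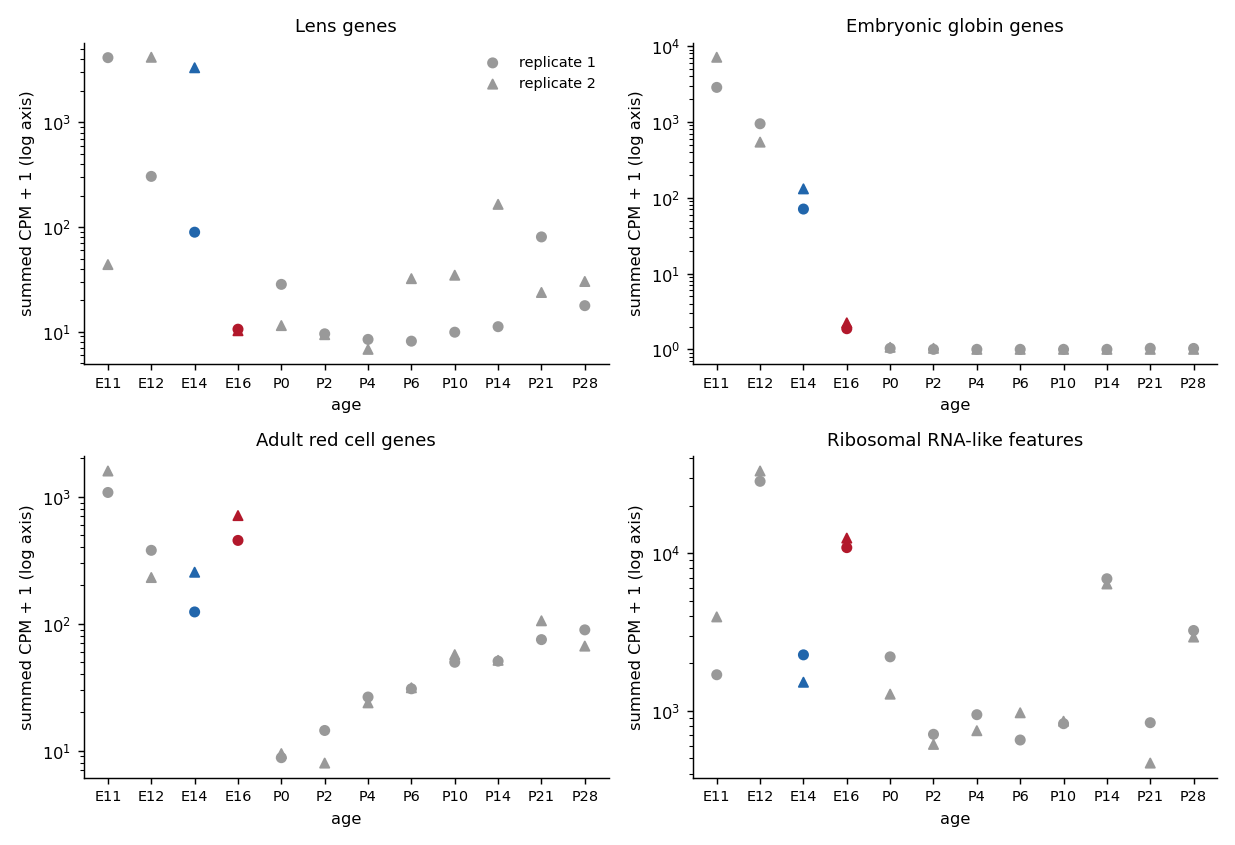
Summed CPM + 1 (log axis) of 3 gene lists from other tissues and of 7 ribosomal RNA-like features in each library, by age (circles replicate 1, triangles replicate 2; E14 blue, E16 red, other ages grey). Lens RNA was high in E14 replicate 2 (3324 CPM) and in 1 library each of E11 and E12, and both E16 libraries were at 9.57 CPM or less.

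Of 21858 genes tested, 1195 (5.47%) were called higher at E16 and 364 (1.67%) lower, 1559 (7.13%) in all. Among the called genes, 472 were over 4-fold higher and 110 over 4-fold lower. The median log2 change over all genes was -0.0015. Of 650 genes tested from 37 gene lists, 134 were called higher and 51 lower. The lists were chosen with earlier results of these data known. The list counts below stand beside 5.47% called higher and 1.67% lower over all genes. The lists with the most genes called higher were those of photoreceptor precursors (18), transmitter receptors (18), cones (13) and amacrine cells (12). The largest number called lower was in the lens list (15), followed by the early temporal list (7) and the progenitor list (4). Among the E16 and E14 libraries, lens RNA was highest in E14 replicate 2. The change by the adjusted p alone passed for 3693 genes (16.9%), 2132 higher and 1561 lower, so many falls were smaller than 2-fold.

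**Figure D2:**
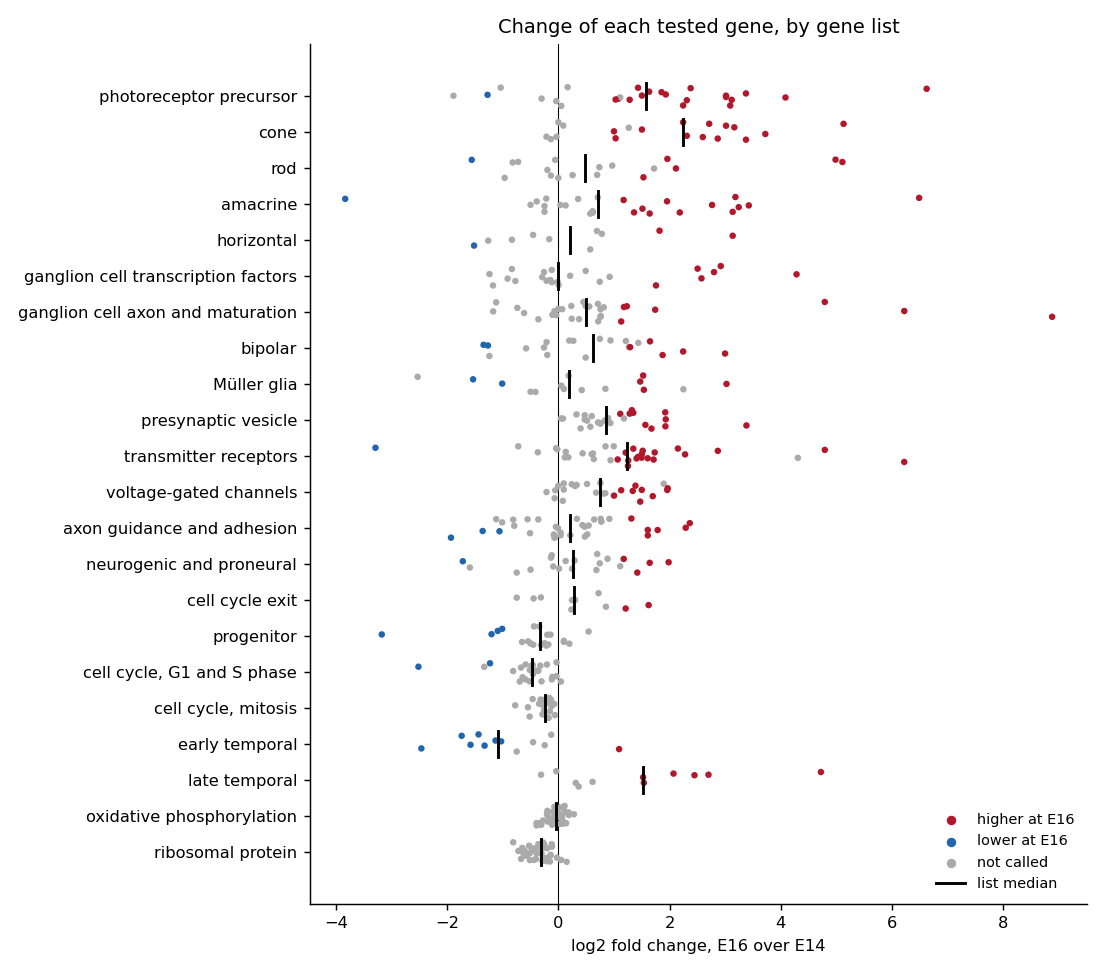
log2 fold change of E16 over E14 (horizontal axis) for each tested gene of 22 gene lists (rows); red points were called higher at E16, blue points lower, grey points were not called, and the black bar is the list median. The cone and photoreceptor precursor lists had medians of 2.24 and 1.57, and the early temporal list a median of -1.08.

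Of 26 tested genes of photoreceptor precursors, 18 were called higher and 1 lower (list median log2 change 1.57). Of 19 cone genes, 13 were called higher and none lower (median 2.24; 6 genes are on both lists). These medians stand beside -0.0015 for all genes. Transcription factors that specify photoreceptors were among the genes that rose. Otx2, required for photoreceptor fate, had 266 and 261 CPM at E16, against 115 and 102 CPM at E14 (log2 change 1.28 ± 0.23 SE, adjusted p = 0.00079). Crx, which acts downstream of Otx2 and drives photoreceptor gene expression, had 147 and 134 CPM at E16, against 58.7 and 45.4 CPM at E14 (log2 change 1.43 ± 0.19). In both genes each E16 library lay above each E14 library. At 2 libraries per age this can also occur without a change, and the share of all genes that separate was not counted.

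Prdm1, which favours photoreceptor over bipolar fate, had 176 and 166 CPM at E16, against 89.9 and 71.4 CPM at E14 (log2 change 1.084). Thrb, the thyroid hormone receptor needed for M cones, had 133 and 155 CPM at E16, against 76.0 and 64.9 CPM at E14 (1.03). Rxrg, a retinoid receptor of cones, had 23.7 and 23.8 CPM at E16, against 10.09 and 6.64 CPM at E14 (1.503). Prdm1 and Thrb sit close to the 2-fold limit: without E14 replicate 2 their log2 changes were 0.93 and 0.92 (adjusted p = 0.010 and 0.053), and without E16 replicate 2 that of Thrb was 0.92 (adjusted p = 0.035), which end the calls. Neurod1, a bHLH factor of photoreceptor precursors, had 225 and 226 CPM at E16, against 109 and 99.1 CPM at E14, and was not called (log2 change 1.11 ± 0.67, adjusted p = 0.30). It was called when only the E14 and E16 libraries were fitted (adjusted p = 0.00048) and without the E11 and E12 libraries (adjusted p = 8.8e-08).

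Genes of the photoreceptor machinery were also called. Rpgrip1, a protein of the connecting cilium (ENSMUSG00000057132, chromosome 14, 52110704 to 52163546, plus strand), had 151 and 112 CPM at E16, against 12.7 and 17.6 CPM at E14 (log2 change 3.12 ± 0.21, adjusted p = 2.6e-08). Impg2, a proteoglycan of the matrix around photoreceptors, had 57.4 and 61.2 CPM at E16, against 8.68 and 5.93 CPM at E14 (3.02 ± 0.40). Gnb3, a G protein subunit of cones and ON bipolar cells, had 62.7 and 48.4 CPM at E16, against 6.03 and 4.65 CPM at E14 (3.37 ± 0.24). In each of the 3, both E16 libraries lay above both E14 libraries, which at 2 libraries per age can also occur without a change. Gnat2, the cone transducin alpha subunit (ENSMUSG00000009108, chromosome 3), had 27.8 and 24.5 CPM at E16, against 3.26 and 2.56 CPM at E14 (3.16 ± 0.24). The cone phosphodiesterase subunit Pde6c, with 18.7 and 17.9 CPM at E16, against 3.32 and 2.24 CPM at E14, rose by 2.71. The cone channel subunits Cngb3 and Cnga3 rose by 2.87 and 2.60 on the log2 scale.

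Opn1sw, the short-wavelength cone opsin, was the cone gene with the largest change. It had 7.64 and 5.57 CPM at E16, against 0.19 and 0.18 CPM at E14 (log2 change 5.13 ± 0.36, adjusted p = 4.6e-08). Opn1mw, the middle-wavelength opsin, had no counts in any of the 4 libraries, and Arr3, cone arrestin, was at 0.18 CPM or less in each. Pde6h, the cone phosphodiesterase inhibitory subunit, rose by 3.72 in the gene table (4.93 and 7.61 CPM at E16, against 0.45 and 0.50 CPM at E14), but the sum of its deposited transcript counts differed by 0.29 (adjusted p = 0.36). Samd7, a transcriptional repressor of photoreceptors, had 0.54 and 0.25 CPM at E16 and no counts at E14, which makes it at least 7.82-fold higher (floor of 3 counts over both E14 libraries). Samd11, a related repressor protein, was the 1 precursor gene that fell, with 6.44 and 5.97 CPM at E16, against 13.95 and 16.05 CPM at E14 (log2 change -1.27). Without E16 replicate 1, 2 precursor genes were called lower.

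Rod genes split. Of 18 tested, 5 were called higher, 1 lower and 12 neither (median 0.48). Nrl, the factor that commits photoreceptors to rod fate, had 4.27 and 4.36 CPM at E16, against 0.93 and 1.07 CPM at E14 (log2 change 2.12 ± 0.16). Prph2, a structural protein of outer segment discs, had 1.90 and 1.55 CPM at E16, from 113 counts, against 3 counts at E14, a ratio of 34.2 with a 95% counting interval of 11.4 to 168. Rp1, a microtubule protein of the photoreceptor axoneme, had 4.33 and 2.91 CPM at E16, against 0 and 0.21 CPM at E14 (log2 change 5.11 ± 0.52). Gnat1, rod transducin, had 1.71 and 2.32 CPM at E16, against 1.53 and 3.12 CPM at E14. Reep6, a rod trafficking protein, fell by 1.56, and 2 rod genes were called lower without E14 replicate 1.

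Promoter sequences are shown for 4 of the genes called higher because CRX and OTX2 are known to bind TAATCC-type sites. The 4 were picked among genes whose promoter holds the motif, so they do not stand for their lists. They are the RefSeq promoters of GRCm38.p6, 250 bases before to 50 after the start, 5′ to 3′ on the strand of the gene, and capitals mark each GGATTA, the reverse complement of TAATCC.
Gnat2, chr3:108092816-108093115, plus strand: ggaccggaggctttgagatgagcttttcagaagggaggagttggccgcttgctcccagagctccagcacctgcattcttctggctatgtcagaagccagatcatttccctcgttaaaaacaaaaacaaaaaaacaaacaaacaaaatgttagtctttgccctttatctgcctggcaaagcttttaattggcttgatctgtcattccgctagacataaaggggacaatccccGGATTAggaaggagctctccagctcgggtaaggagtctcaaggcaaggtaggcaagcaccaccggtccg
Rpgrip1, chr14:52110653-52110952, plus strand: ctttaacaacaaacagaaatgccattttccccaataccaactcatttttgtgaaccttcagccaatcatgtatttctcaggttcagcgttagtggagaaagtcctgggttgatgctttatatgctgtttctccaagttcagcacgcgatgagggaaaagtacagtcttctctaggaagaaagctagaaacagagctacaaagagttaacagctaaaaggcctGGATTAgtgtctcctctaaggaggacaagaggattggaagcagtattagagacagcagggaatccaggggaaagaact
Aipl1, chr11:72037460-72037759, minus strand: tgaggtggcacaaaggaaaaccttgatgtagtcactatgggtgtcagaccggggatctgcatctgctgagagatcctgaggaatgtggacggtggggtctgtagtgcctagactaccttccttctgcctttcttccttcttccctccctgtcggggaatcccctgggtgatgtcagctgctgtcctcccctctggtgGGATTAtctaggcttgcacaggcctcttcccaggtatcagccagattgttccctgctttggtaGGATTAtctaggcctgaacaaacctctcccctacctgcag
Crx, chr7:15879906-15880205, minus strand: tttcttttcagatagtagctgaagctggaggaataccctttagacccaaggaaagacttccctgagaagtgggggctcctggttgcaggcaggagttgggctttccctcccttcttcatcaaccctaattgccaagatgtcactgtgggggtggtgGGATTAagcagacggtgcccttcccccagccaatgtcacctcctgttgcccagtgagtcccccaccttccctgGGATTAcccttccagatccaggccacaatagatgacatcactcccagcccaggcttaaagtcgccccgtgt

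TAATCC was searched on both strands. Of 25 photoreceptor precursor and cone genes called higher, 19 had a promoter in the RefSeq table and 7 of these (36.8%) held the motif in at least 1 promoter. Of the 14 genes of the same lists that were not called higher, 11 had a promoter and 4 (36.4%) held it, so the share did not separate genes called higher from the rest of the lists. Over all 27025 genes of the promoter table the share was 8.14%. Counted by promoter, the share was 24.1% of 29 for genes called higher and 28.6% of 14 for the others of the lists. Over all 32851 promoters it was 7.06%. The Gnat2 and Rpgrip1 promoters hold 1 match each, and the Aipl1 and Crx promoters 2 each. Aipl1, a chaperone for the photoreceptor phosphodiesterase, had 5.62 and 5.29 CPM at E16, against 0.83 and 0.43 CPM at E14 (log2 change 3.09 ± 0.18). A match describes these letters and does not show binding.

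**Figure D3:**
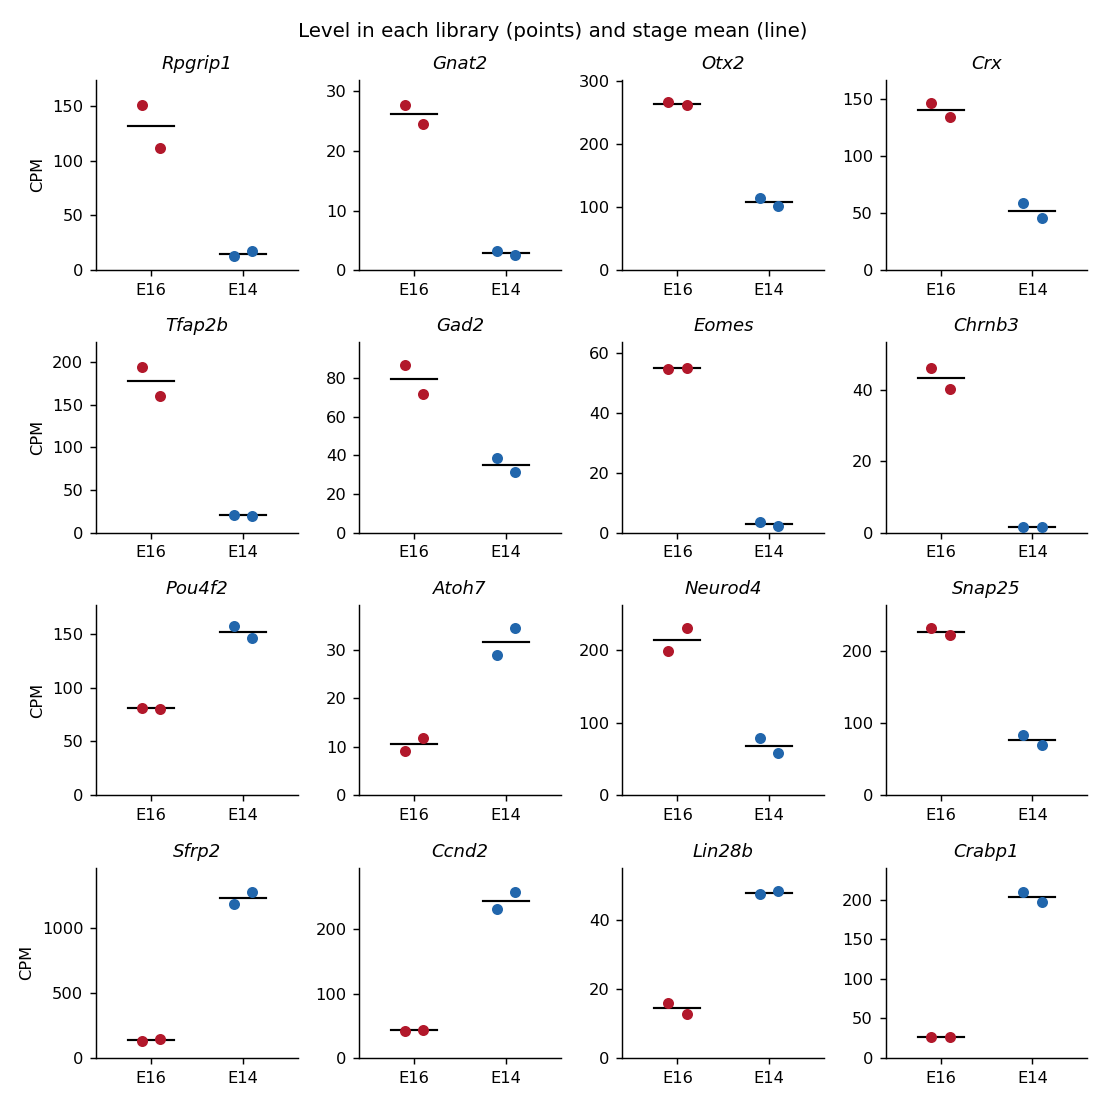
CPM in each library (points) and the mean of the 2 libraries (lines) for 16 genes, E16 in red left of E14 in blue; each panel has its own linear axis from 0. The 16 genes were picked for display. The libraries of the ages did not overlap in them, but the share of all genes without overlap was not counted. Pou4f2 and Atoh7 had lower values at E16 and were not called.

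Of 25 amacrine genes tested, 12 were called higher and 1 lower (median 0.71). The AP-2 factors of amacrine and horizontal cells rose strongly. Tfap2b (ENSMUSG00000025927, chromosome 1, 19208914 to 19238576, plus strand) had 194 and 160 CPM at E16, against 20.5 and 19.8 CPM at E14 (log2 change 3.135 ± 0.16, adjusted p = 8.7e-10). Tfap2a had 36.1 and 30.02 CPM at E16, against 3.16 and 2.98 CPM at E14 (3.42 ± 0.32), and Tfap2c rose by 1.96. Genes that make and move GABA, the main inhibitory transmitter of these cells, also rose. Gad1, which makes GABA, had 10.5 and 8.32 CPM at E16, against 0.096 and 0.11 CPM at E14 (6.49 ± 0.22). Its relative Gad2 had 86.9 and 72.0 CPM at E16, against 38.9 and 31.5 CPM at E14 (1.17 ± 0.23). The vesicular transporter Slc32a1, with 7.58 and 6.59 CPM at E16, against 0.64 and 0.92 CPM at E14, rose by 3.18.

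Ptf1a, the bHLH factor that specifies amacrine and horizontal cells, had 10.17 and 11.4 CPM at E16, against 4.85 and 2.70 CPM at E14 (log2 change 1.51, adjusted p = 0.018). The call of Ptf1a was lost without E14 replicate 2 (1.15, adjusted p = 0.19), without E16 replicate 1 (adjusted p = 0.059) and without E16 replicate 2 (adjusted p = 0.094). Prdm13, which acts downstream of Ptf1a, rose by 1.36, and the calcium-binding protein gene Calb2 by 1.64. Th, tyrosine hydroxylase of dopamine synthesis, was the amacrine gene that fell, with 0.93 and 0.37 CPM at E16, against 9.58 and 9.12 CPM at E14 (-3.83 ± 0.40). Its highest mean over the 12 ages was at E14. Chat and Neurod6 were at 0.33 CPM or less in all 4 libraries. Of 10 horizontal cell genes, 2 were called higher and 1 lower (median 0.21). Tfap2b is on both lists, and Lhx1, a LIM factor of horizontal cells, had 5.93 and 2.35 CPM at E16, against 0.42 and 1.95 CPM at E14 (log2 change 1.82, adjusted p = 0.047), with the call lost without E14 replicate 1 (adjusted p = 0.30), without E16 replicate 1 (adjusted p = 0.42) or with only the E14 and E16 libraries (adjusted p = 0.11). Onecut1 and Onecut2, early horizontal and ganglion cell factors, were not called (log2 changes -0.45 and -0.83). Without E16 replicate 1 the list had 2 genes called lower.

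Atoh7, the bHLH factor that makes progenitors competent for ganglion cell fate, had 9.23 and 11.8 CPM at E16, against 28.9 and 34.5 CPM at E14. Its libraries did not overlap but the gene was not called over all libraries (log2 change -1.59 ± 0.71, adjusted p = 0.14), and it was called when only the E14 and E16 libraries were fitted (adjusted p = 0.0014) or the E11 and E12 libraries were left out (adjusted p = 0.0011). Pou4f2, which acts just after Atoh7 in new ganglion cells, had 80.6 and 80.6 CPM at E16, against 157 and 146 CPM at E14 (-0.91 ± 0.54, adjusted p = 0.29). The log2 change of Pou4f2 stayed between -0.96 and -0.85 over 16 alternative settings, under the 2-fold limit, while its adjusted p depended on the fit. Isl1, its partner factor, had 146 and 147 CPM at E16, against 176 and 175 CPM at E14 (-0.26, not called).

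Of 23 ganglion cell transcription factors and fate regulators tested, 6 were called higher and none lower (median -0.012). Eomes, needed for melanopsin-expressing and other ganglion cell subtypes (ENSMUSG00000032446, chromosome 9, 118478212 to 118486132, plus strand), had 54.7 and 55.2 CPM at E16, against 3.48 and 2.13 CPM at E14 (log2 change 4.28 ± 0.26, adjusted p = 9.1e-09). Pou4f1 had 126 and 110 CPM at E16, against 36.3 and 33.5 CPM at E14 (1.76 ± 0.14). Pou4f3 had 12.4 and 13.1 CPM at E16, against 2.46 and 2.02 CPM at E14 (2.50 ± 0.21). Pou4f1 and Pou4f3 thus rose while Pou4f2 was not called, and the difference between the 3 paralogs was not tested. Isl2, a LIM factor of contralaterally projecting ganglion cells, rose by 2.80. Mstn, the growth regulator myostatin, rose by 2.57, and Irx1, at 1.33 CPM or less, by 2.92.

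Of 29 genes of ganglion cell axons and maturation, 7 were called higher and none lower (median 0.49). Chrnb3, a nicotinic receptor subunit of ganglion cells (ENSMUSG00000031492, chromosome 8, 27368711 to 27399729, plus strand), had 46.4 and 40.3 CPM at E16, against 1.63 and 1.49 CPM at E14 (log2 change 4.79 ± 0.17, adjusted p = 2.5e-11). Chrna6, its partner subunit, had 7.04 and 6.09 CPM at E16, against 0.064 and 0.11 CPM at E14 (6.22 ± 0.26). Thy1, a surface glycoprotein widely used to mark mature ganglion cells, had 645 counts at E16, 11.19 and 8.44 CPM, against 1 count at E14, a ratio of 585 with a 95% counting interval of 105 to 23100. Neurofilament genes differed among themselves. Nefl had 331 and 333 CPM at E16, against 359 and 306 CPM at E14 (-0.00038 ± 0.23). Nefm had 239 and 213 CPM at E16, against 380 and 372 CPM at E14 (-0.74 ± 0.23, adjusted p = 0.038, under the 2-fold limit). Nefh, the heavy subunit, rose by 1.74 at a low level, 2.65 and 2.54 CPM at E16, against 0.89 and 0.64 CPM at E14. Gap43, a growth cone protein, and Slc17a6, the vesicular glutamate transporter of ganglion cells, passed the adjusted p alone (log2 changes 0.72 and 0.76).

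Of 26 presynaptic vesicle genes, 10 were called higher and none lower (median 0.87), beside 5.47% and 1.67% of all genes. All 26 had a change above 0, beside 10703 of all 21858 genes. Snap25, a SNARE of vesicle fusion, had 231 and 222 CPM at E16, against 83.3 and 69.7 CPM at E14 (log2 change 1.57 ± 0.16). Syt1, the calcium sensor of release, had 228 and 226 CPM at E16, against 100.4 and 77.6 CPM at E14 (1.35 ± 0.11). Sncb, beta-synuclein, showed the largest change of the list, with 5.44 and 4.79 CPM at E16, against 0.51 and 0.46 CPM at E14 (3.38 ± 0.28). Cplx1, a regulator of the SNARE complex, and Rims1, an active zone scaffold, rose by 1.93 and 1.92.

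Of 34 transmitter receptor genes, 18 were called higher and 1 lower (median 1.23). Among GABA-A receptor subunit genes, Gabra5 rose by 2.15 and Gabrb2 by 1.73 on the log2 scale, and Gabra2, Gabrb1 and Gabrg3 by 1.07 to 1.52. The glycine receptor subunit gene Glra2 rose by 1.71. Among glutamate receptors, Grik3, a kainate receptor subunit, had 29.96 and 24.2 CPM at E16, against 3.99 and 3.41 CPM at E14 (2.87 ± 0.24), and the NMDA receptor genes Grin1 and Grin2b rose by 1.504 and 2.28. Grm2, a presynaptic metabotropic glutamate receptor, fell, with 3.399 and 3.18 CPM at E16, against 25.5 and 38.8 CPM at E14 (-3.29 ± 0.30). Of 25 voltage-gated channel genes, 9 were called higher and none lower (median 0.76). They include the potassium channel genes Kcnd2, Kcna2, Kcnc1 and Kcnc2 (1.47 to 1.96).

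Axon guidance genes were mixed: of 35, 6 were called higher and 3 lower (median 0.22). Robo3, which controls commissural guidance, had 10.4 and 7.42 CPM at E16, against 1.82 and 1.63 CPM at E14 (log2 change 2.36 ± 0.38). Sema3e, a secreted repellent, rose by 2.29, Ephb1, the receptor of ipsilateral ganglion cell axons, by 1.79, and the semaphorin receptor genes Plxna2, Nrp2 and Plxna4 by 1.61, 1.61 and 1.31. Ntn1, which guides ganglion cell axons into the optic nerve, had 4.33 and 4.205 CPM at E16, against 16.3 and 16.19 CPM at E14 (-1.93 ± 0.43). Tenm3, a teneurin of topographic wiring, had 151 and 143 CPM at E16, against 365 and 391 CPM at E14 (-1.36 ± 0.12).

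Of 20 neurogenic genes, 4 were called higher and 1 lower (median 0.27), beside 5.47% and 1.67% of all genes tested. Neurod4, a bHLH factor of amacrine and bipolar precursors, had 199 and 230 CPM at E16, against 78.3 and 58.7 CPM at E14 (1.64 ± 0.39). Dll3, a Notch ligand family member, rose by 1.42. Olig2, which marks dividing progenitors about to produce cones and horizontal cells, had 24.8 and 21.5 CPM at E16, against 10.5 and 9.94 CPM at E14 (1.18, adjusted p = 0.040), and lost its call when any 1 of the 4 libraries was left out (adjusted p between 0.11 and 0.20). Neurog2 had 134 and 139 CPM at E16, against 89.5 and 79.0 CPM at E14, and was not called (0.70 ± 0.69). The log2 change of Neurog2 stayed between 0.61 and 0.79 over 16 alternative settings, while its adjusted p depended on the fit. Jag1, a Notch ligand, fell by 1.72. Without E14 replicate 2 the list had 2 genes called higher.

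Most progenitor and cell cycle genes were not called, while a few fell strongly. Of 20 progenitor genes, 4 were called lower and none higher (median -0.33). The adjusted p alone passed for 8 in the lower direction, beside 1561 of all 21858 genes. Sfrp2, a secreted WNT antagonist (ENSMUSG00000027996, chromosome 3, 83766321 to 83774316, plus strand), had 131 and 142 CPM at E16, against 1183 and 1276 CPM at E14 (log2 change -3.17 ± 0.15, adjusted p = 5.4e-10). Nes and Vim, intermediate filament genes of progenitors, had 139 and 140 CPM (Nes) and 311 and 321 CPM (Vim) at E16, against 297 and 297 CPM (Nes) and 633 and 639 CPM (Vim) at E14 (-1.09 and -1.01). Id3, an inhibitor of bHLH factors, fell by 1.2002. The progenitor homeobox genes Pax6 (-0.25), Rax (-0.45) and Lhx2 (-0.31) were not called, nor were the Notch effectors Hes1 (-0.14) and Hes5 (-0.21).

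The D cyclins, which drive entry into S phase, differed among themselves. Ccnd2 had 41.5 and 44.1 CPM at E16, against 231 and 258 CPM at E14 (log2 change -2.51 ± 0.79, adjusted p = 0.037). Ccnd3 had 61.9 and 60.7 CPM at E16, against 139.9 and 147 CPM at E14 (-1.23 ± 0.29, adjusted p = 0.0064). Ccnd1, the main D cyclin of retinal progenitors, had 2696 and 2760 CPM at E16, against 2610 and 2480 CPM at E14 (0.10 ± 0.20, not called). Replicates of Ccnd2 lay close to each other at E16 and at E14, but the spread used in the test comes from all 12 ages, and the call was lost when any of the 4 libraries was left out (adjusted p between 0.078 and 0.18). That of Ccnd3 was lost without E16 replicate 1 (adjusted p = 0.051) or E16 replicate 2 (adjusted p = 0.055). These were the only calls among 24 genes of G1 and S phase (median -0.47), of which 23 had a change below 0. In edgeR the adjusted p alone passed for 13 of the 24 in the lower direction, beside 1561 of all 21858 genes. An unadjusted p under 0.05 was reached by 15 of them, beside 6366 of all genes. Most of the 13 thus had changes under the 2-fold limit. None of 20 mitosis genes was called (median -0.24), and all 20 changes were below 0, Mki67 at -0.13 ± 0.18. Of all 21858 genes, 10962 had a change below 0. With DESeq2 none of these 20 was called either. In edgeR, 3 of the 20 mitosis genes had an unadjusted p under 0.05, beside 6366 of all 21858 genes. The adjusted p alone passed for 2 in the lower direction, beside 1561 of all genes, Cdc20 with -0.52 (adjusted p = 0.021) among them. Of 10 genes of cell cycle exit, Btg1, an antiproliferative factor, had 189 and 201 CPM at E16, against 86.6 and 81.9 CPM at E14 (1.21 ± 0.10), and Cdkn1a, the inhibitor p21, rose by 1.62.

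Of 12 genes of the early retina, 7 were called lower and 1 higher (median -1.08). Lin28b, which blocks let-7 microRNA maturation (ENSMUSG00000063804, chromosome 10, 45376620 to 45470201, minus strand), had 15.9 and 12.8 CPM at E16, against 47.4 and 48.4 CPM at E14 (log2 change -1.74 ± 0.21). Its paralog Lin28a had 0.84 and 1.73 CPM at E16, against 6.03 and 8.17 CPM at E14 (-2.46 ± 0.57), and lost its call without E16 replicate 1 (-2.03, adjusted p = 0.083). Hmga2, a chromatin protein of early stem cells, had 35.1 and 39.6 CPM at E16, against 94.8 and 107 CPM at E14 (-1.43 ± 0.16). Igf2bp1 and Igf2bp2, RNA-binding proteins, fell by 1.13 and 1.03, Foxp1 by 1.58 and Trim71 by 1.33. Dapl1 was the gene called higher (1.09), and was not without E14 replicate 2. Igf2bp3, at -0.75 (adjusted p = 0.0097), stayed under the 2-fold limit.

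Of 11 genes of the late retina, 6 were called higher and none lower (median 1.53). Crym, a thyroid hormone binding crystallin, had 45.0 and 40.8 CPM at E16, against 2.04 and 1.17 CPM at E14 (log2 change 4.72 ± 0.64). Sox8, a factor of late progenitors and glia, averaged 78.9 ± 7.78 CPM at E16, against 12.14 ± 0.0549 CPM at E14 (SD, n = 2 each) (2.70 ± 0.25). Nfia, a nuclear factor I gene of late progenitors, had 22.5 and 26.1 CPM at E16, against 6.74 and 4.79 CPM at E14 (2.07 ± 0.31). Its relative Nfib had 47.0 and 42.1 CPM at E16, against 21.23 and 37.0 CPM at E14 (0.62, adjusted p = 0.041, under the 2-fold limit). Car2, Gpr37 and Rlbp1, later glial genes, rose by 2.45, 1.54 and 1.53.

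Bipolar and Müller glia lists held calls in both directions. Of 20 bipolar genes, 5 were called higher and 2 lower (median 0.62); leaving out any of the 4 libraries left 1 or 0 called lower. Cabp5, a calcium-binding protein of bipolar cells, had the largest change, with 1.56 and 1.17 CPM at E16, against 0.16 and 0.18 CPM at E14 (log2 change 2.998 ± 0.43, adjusted p = 8.6e-05). Lhx4, which is on the photoreceptor lists too, rose by 2.24, Prkca by 1.88, Rgs11 by 1.65 and Gnao1 by 1.29. The bipolar genes Vsx1, Grm6 and Scgn were at 0.32 CPM or less in each of the 4 libraries. Of 15 Müller genes, 4 were called higher and 2 lower (median 0.19; 1 lower without E16 replicate 1). Kcnj10, a glial potassium channel, had 10.3 and 8.90 CPM at E16, against 1.02 and 1.35 CPM at E14 (log2 change 3.02 ± 0.20), while Aqp4, the water channel of mature Müller glia, was at 0.96 CPM or less. Glul, glutamine synthetase, had 486 and 523 CPM at E16, against 442 and 443 CPM at E14 (0.19, not called).

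Among 29 signalling genes of the WNT, FGF, SHH and BMP pathways and retinoic acid synthesis, 3 were called higher and 3 lower (median 0.19). Shh, secreted by ganglion cells to act on progenitors, had 4.24 and 4.88 CPM at E16, against 2.75 and 1.74 CPM at E14 (log2 change 1.02, adjusted p = 0.042). Its call was lost without E14 replicate 2 (0.73, adjusted p = 0.33), without E16 replicate 1 (adjusted p = 0.093) or E16 replicate 2 (adjusted p = 0.19), and with summed transcripts (0.97). Hhip, an SHH target and antagonist, had 41.3 and 46.2 CPM at E16, against 9.32 and 7.67 CPM at E14 (2.36 ± 0.33). Aldh1a1, the retinoic acid synthesis enzyme of the dorsal retina, had 148 and 229 CPM at E16, against 609 and 742 CPM at E14 (-1.84 ± 0.26).

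The 12 largest rises by the naming rule (called, at least 20 CPM, libraries of the ages not overlapping) were Syt6, Chrnb3, Crym, Igf1, Eomes, Ablim3, Rgs5, Dlg2, Rgs4, Tfap2a, Gnb3 and Chd5. Syt6, a synaptotagmin of vesicle traffic, had 24.3 and 19.1 CPM at E16, against 0.29 and 0.60 CPM at E14 (log2 change 5.62 ± 0.23). Igf1, insulin-like growth factor 1, had 66.7 and 64.1 CPM at E16, against 2.27 and 3.12 CPM at E14 (4.60 ± 0.44). Dlg2, a postsynaptic scaffold protein, had 135 and 109.8 CPM at E16, against 11.3 and 7.60 CPM at E14 (3.69 ± 0.29). Rgs4, a regulator of G protein signalling in neurons, had 101 and 101 CPM at E16, against 10.5 and 7.60 CPM at E14 (3.48 ± 0.20). Ablim3, an actin-binding protein, rose by 4.17, and Chd5, a neuronal chromatin remodeller, by 3.25.

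Of the 12 largest falls, 11 were lens genes (10 crystallins and Mip) and the other was Hbb-y, so a further 12 were taken outside the lens and red cell lists, with E14 libraries within 4-fold of each other. This second rule was set after the values were seen. Led by Grm2 and Sfrp2, they include Crabp1, a cytoplasmic retinoic acid binding protein, with 26.3 and 27.0 CPM at E16, against 210 and 197 CPM at E14 (log2 change -2.93 ± 0.18). Lgr5, a receptor for R-spondins in the WNT pathway, had 7.46 and 8.22 CPM at E16, against 47.8 and 54.1 CPM at E14 (-2.70 ± 0.24). Stra6, a receptor for retinol binding protein, had 10.9 and 12.0 CPM at E16, against 51.0 and 66.1 CPM at E14 (-2.35 ± 0.25). Otx1, a homeobox gene, fell by 2.19, and Unc5b, a netrin receptor, by 2.14. Clec18a and Slc38a4 fell by 2.41 and 2.06. Mecom (-2.28) lost its call without E16 replicate 1 (adjusted p = 0.061), and Wdr86 (-2.06) without E16 replicate 2 (adjusted p = 0.052).

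Of 3 primitive red cell genes tested, 2 were called lower. Hbb-y, an embryonic beta-type globin, had 0.51 and 0.99 CPM at E16, against 57.8 and 108 CPM at E14 (log2 change -6.79 ± 0.51), and Hba-x fell by 5.75. Of 10 adult red cell genes, 4 were called higher and none lower. Hbb-bs, an adult beta globin, had 196 and 311 CPM at E16, against 28.7 and 61.2 CPM at E14 (2.50 ± 0.39). Hbb-bt, a near-identical copy whose reads may be split with it, rose by 1.46, a call lost without E14 replicate 1 (adjusted p = 0.25) or E16 replicate 2 (adjusted p = 0.24), each of which left 1 gene of the list called. DESeq2 did not call Hbb-bt on all libraries either (1.45, adjusted p = 0.11). Rgs5, a pericyte gene, had 21.3 and 32.1 CPM at E16, against 0.38 and 2.80 CPM at E14 (4.0997 ± 0.42). Of 8 pericyte genes, 4 were called higher and Notch3 lower, with 2 called higher without E14 replicate 1. Of 13 endothelial genes, 3 were called higher (median 1.02), with 0 without E16 replicate 2, 1 without E14 replicate 1 and 7 without E14 replicate 2. Whether retinal or hyaloid vessels contributed this RNA was not tested. Pax2, a marker of the optic nerve head and astrocytes, had 1.90 and 1.73 CPM at E16, against 7.22 and 8.81 CPM at E14 (-2.14 ± 0.39).

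Few housekeeping genes were called. None of 33 oxidative phosphorylation genes (median -0.038) and none of 40 ribosomal protein genes (median -0.32) was called by edgeR or DESeq2. In edgeR, 5 and 27 of them had an unadjusted p under 0.05, beside 6366 of all 21858 genes. Of the ribosomal protein genes, 38 had a change below 0, beside 10962 of all genes. The adjusted p alone passed for 18 in the lower direction, beside 1561 of all genes, Rpl18 with -0.72 ± 0.13 (adjusted p = 0.0011). Most of these genes thus had small changes below 0, under the 2-fold limit. Of 22 glycolysis genes, Eno2, the neuronal enolase, was called higher, with 21.8 and 23.7 CPM at E16, against 7.89 and 11.4 CPM at E14 (1.24 ± 0.16), and without E14 replicate 1 its change was 0.99, just under 2-fold. None of 8 muscle and 14 stress genes was called by edgeR or DESeq2 (1 and 5 at an unadjusted p under 0.05), though 1 stress gene was called without E14 replicate 1, and 1 higher and 1 lower with summed transcripts. Of 7 myelin genes, Cnp rose by 1.33 and Mobp fell by 2.45, a call lost without E14 replicate 2, E16 replicate 1 or E16 replicate 2 (adjusted p between 0.088 and 0.31). Npas4, an activity-dependent factor, was the 1 immediate early gene called (1.59), and 2 were without E16 replicate 2. In the mesenchyme list 2 were called higher and 2 lower, 1 each without either E16 library, 1 higher without E14 replicate 1 and 1 lower without E14 replicate 2, at list sums of 15.7 and 14.3 CPM at E16, against 32.0 and 40.4 CPM at E14. The microglia list had 1 called gene, Ptprc (-1.21), a call lost without E14 replicate 2 (-0.50, adjusted p = 0.54), E16 replicate 1 or E16 replicate 2 (adjusted p = 0.19 and 0.11), and with only the E14 and E16 libraries (adjusted p = 0.11). Of 15 pigment cell genes, 3 were called higher and 1 lower, with 1 called higher without either E14 library and none lower without E14 replicate 2 or either E16 library.

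The same genes were then read between P0 and E12. These 4 libraries enter neither side of the fold change, but they share the fit that gives the spread behind each call, so they are no independent check. There, 3478 of all genes (15.9%) were called higher and 2000 (9.15%) lower, 25.1% in all. Of the 1195 genes higher at E16, 993 (83.1%) were also called higher at P0 and 59 (4.94%) lower, with a median log2 change of 3.05. Of the 364 genes lower at E16, 266 (73.1%) were called lower at P0 and 17 (4.67%) higher, with a median of -2.09. RNA input differed in that comparison, 1 µg at P0 and 100 ng at E12. Grm2 (0.97) and Crabp1 (-0.78) were among the genes not called there. In age order, the means of Crabp1 were 79.3 CPM at E12, 203 CPM at E14, 26.6 CPM at E16 and 46.1 CPM at P0. Those of Grm2 were 2.65, 32.2, 3.29 and 5.22 CPM at the same ages.

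**Figure D4:**
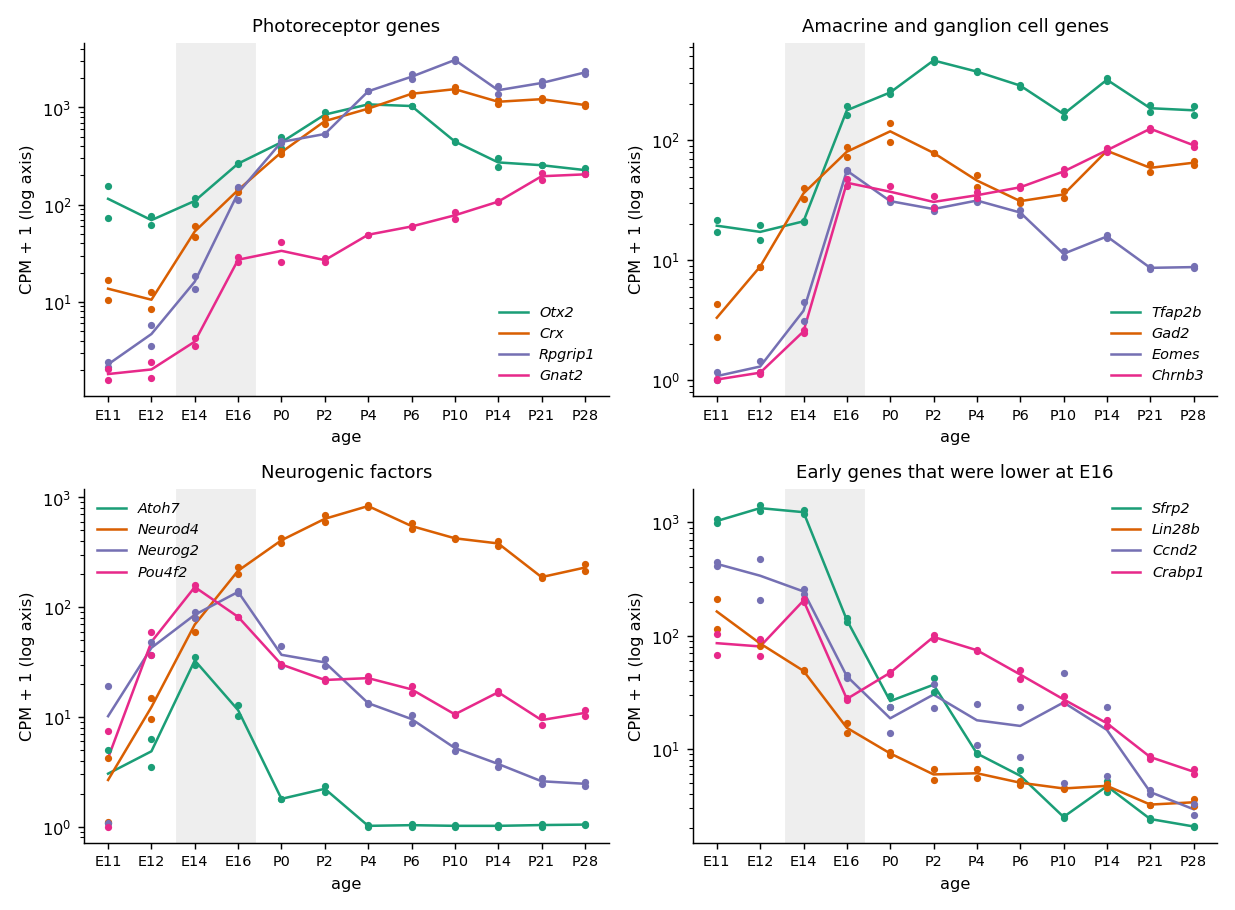
Mean CPM + 1 (log axis) over the 12 ages for 16 genes in 4 groups, with a point for each library; the grey band marks E14 and E16. Eomes and Neurog2 had their highest mean at E16, Atoh7 and Pou4f2 at E14, and Rpgrip1 and Crx at P10.

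Across all 12 ages, 381 (31.9%) of the genes called higher had their highest mean at P14, against 9.54% of all genes tested, and 114 (9.54%) had it at E16 itself. Of the genes called lower, 163 (44.8%) had their highest mean at E11, against 19.9% of all genes, and 65 (17.9%) at E14. The call itself uses the E16 and E14 values, so it bars a peak at the lower of these ages and favours one at the higher, and nothing is read from those shares. Neurog2 averaged 35.8 CPM at P0, against 137 CPM at E16. Eomes averaged 30.2 CPM at P0, against 55.0 CPM at E16, while Opn1sw averaged 130 CPM at P0, against 6.60 CPM at E16. Nrl averaged 83.7 CPM at P0, against 4.32 CPM at E16.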

How the data were processed

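RNA was sequenced from 24 retina libraries, and the 4 of E16 and E14 were compared. The authors deposited estimated counts per Ensembl gene and per transcript; the submitters' processing notes name kallisto 0.42.4, edgeR 3.13.9 and GRCm38.p5, with no role for each, and no source used here says how transcripts were summed to genes. These expected counts were rounded to whole numbers. With edgeR 4.0.16 (R 4.3.3), genes were filtered (filterByExpr, minimum count 10, leaving 21858 of 45594), scaled by TMM and tested by quasi-likelihood with 1 coefficient per age over all 24 libraries (12 residual degrees of freedom), so the spread is shared by all ages. SE is the log2 change over the square root of F. Near-identical gene copies may share reads. Intervals and floors cover counting error only.

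Genes were named as the 12 largest rises and falls (called, at least 20 CPM, no overlap, no placeholder symbol), the 2 largest called changes per list (the lowest p where none was called) and 34 followed genes; others are described as members of their list. The members and lists were chosen with earlier results of these data known. The deposited normalized values and the authors' comparison table were not used. DESeq2 1.42.0, other scalings, filters, sample sets and left-out libraries were alternatives. Some genes of the lists are counted but not reported here by name.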

Additional observations from a re-analysis of the deposited data

How the results depend on the processing

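The 2 groups of 2 libraries limit all calls, and a left-out library leaves an age with 1 sample that is assumed to vary like the other ages. Against 1195 genes called higher and 364 lower, the count was 2132 higher and 1561 lower with no fold threshold, and 465 and 72 with a test against a 2-fold change. Called lower were 547 genes with no low-count filter, and between 229 and 390 when 1 library was left out (938 to 1070 higher). Among list genes, against 134 higher and 51 lower, 70 and 17 passed the 2-fold test, 99 were lower with no fold threshold, and leaving out 1 library gave 26 to 53 lower. DESeq2 called 1160 higher and 389 lower, 1107 and 338 of them shared with edgeR. Calls higher made up 76.7% of all calls, 57.7% with no fold threshold and 86.6% in the 2-fold test. Library size alone shifted the median of all genes to 0.046. The replicate block gave 1186 higher and 367 lower, and under it Lhx1 was not called (1.80, adjusted p = 0.063), which leaves 1 horizontal cell gene called higher; the replicate numbers of E16 and E14 deviated together with a correlation of -0.069, or -0.13 on log2(CPM + 1), so they were not taken to pair the samples. Crossing the E14 numbers, an alternative chosen after seeing the data, gave 1186 and 358. Over 119 named genes and 16 alternatives (1899 values), 1746 kept direction and side of the threshold, 129 lost and 16 gained the call; the cause was not tested. Only Nefl, near 0, changed sign: 0.057 with library size alone, 0.0023 with no filter, 0.011 with at least 1 CPM in 2 libraries, 0.0053 with the replicate block, 0.012 with the E14 and E16 libraries only, 0.0051 without E11 and E12, and -0.11 to 0.12 when 1 library was left out. With no filter the prior degrees of freedom of the spread were 162, against 4.69, so a gene's own spread hardly enters its p there.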

Other observations

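Several families were examined after their values had been seen, so their counts are descriptions. Of 21 retinoic acid handling genes tested, 6 were called lower and 3 higher (median log2 change -0.17). The binding proteins Crabp1 and Crabp2 fell by 2.93 and 1.103. The synthesis enzyme Aldh1a1 and its relative Aldh1a7, which may share reads, fell by 1.84 and 2.47. Those called higher were Lrat, Dhrs3 and Rxrg. Aldh1a3, the enzyme of the ventral retina, was not called, with 140 and 135 CPM at E16, against 155 and 155 CPM at E14 (-0.17). Of 5 Zic factors, 3 were called lower: Zic1 had 51.7 and 52.7 CPM at E16, against 126 and 161 CPM at E14 (-1.46). Of 7 genes of WNT transcription factors and R-spondin receptors, Lgr5, Tcf7l1, Lef1 and Tcf7 were called lower. Fbn2, a fibrillin of the extracellular matrix, had 131 and 130 CPM at E16, against 366 and 423 CPM at E14 (-1.60), and Fbn1 and Fn1 fell by 1.69 and 1.27.

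Clustered protocadherins, cell surface proteins that give neurons individual identities, were counted by cluster: 13 of 14 alpha, 14 of 22 beta and 1 of 23 gamma genes were called higher, and none lower, with medians of 1.95, 1.37 and 0.13. Pcdhac2 had 18.2 and 17.3 CPM at E16, against 5.04 and 5.08 CPM at E14 (1.81). Alpha and gamma genes share constant exons within their cluster, so the split of reads between them is uncertain, and the difference between clusters was not tested.

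All 7 ribosomal RNA-like features were called higher. Lars2 had 4080 and 4556 CPM at E16, against 563 and 433 CPM at E14, and its age means were 713 CPM at E11, 13152 CPM at E12, 443 CPM at P0 and 2213 CPM at P14. Gm13301 on chromosome 4 had 24.3 and 21.15 CPM at E16 and no counts at E14, and was also without counts at E11 and P10. Wdfy1 had 43.7 and 40.3 CPM at E16, against 94.8 and 91.0 CPM at E14, with means of 102 CPM at P0 and 89.1 CPM at P10. Nnt, which is known to differ between C57BL/6 substrains, had 55.4 and 55.2 CPM at E16, against 116 and 118 CPM at E14. A difference in genetic background between the ages was not tested, and all ages carry the same strain label.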
